A study of Mus musculus with 9 samples.

Results

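The collagen genes are described here in sorted mouse keratinocytes at postnatal days 1, 7 and 14. Members were all genes in the deposited table whose symbol reads Col, a number, a, and a number, except Col17a1 and Col7a1, which gives 42 of 24532 genes. They were grouped by the protein they encode into 11 fibrillar collagens, 8 basement membrane collagens (6 chains of type IV, with Col15a1 and Col18a1) and 23 other collagens. Cells came from the skin of C57BL/6 mice and were sorted as CD45.2-negative and propidium iodide-negative, a gate against leukocytes and dead cells, while no surface marker of keratinocytes was used to pick cells. No treatment or genetic change was given for any day. Each day had 3 RNA libraries. Whether different animals stand behind the libraries, and of which sex, is not labelled. A p-value here therefore weighs a change against library-to-library spread that may be technical.

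Collagens are triple-helical proteins of the extracellular matrix, secreted as procollagen chains that are hydroxylated and folded inside the cell. Fibrillar collagens such as types I, III and V build the fibres of the dermis and are made mainly by fibroblasts. Type IV collagen is the sheet-forming collagen of basement membranes, on which the basal keratinocytes of the epidermis rest. Among the others, FACIT collagens (fibril-associated collagens with interrupted helices) sit on fibrils or near basement membranes, type VI forms beaded filaments, and transmembrane collagens stay at the cell surface.

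Total counts ran from 50670200 to 62970800 per library, and libraries of a day correlated with r between 0.986 and 0.991 on the log scale across genes. The columns used as day 1 are headed D0, which matches no title, and were placed by elimination, since the rest name days 7 and 14. By their column headers, days 1 and 14 have libraries 4, 5 and 6, while day 7 has libraries 1, 2 and 3. The day 7 headers also read KLRNA where the others read KL. What this stands for is not labelled, and it cannot be told apart from day 7 itself. The basal keratins Krt5 and Krt14 averaged 21979.9 and 12763.5 CPM (counts scaled to library size, with TMM factors) at day 1. The summed level of 7 keratinocyte markers lay between 48635 and 56082 CPM at day 1 and 56577 and 58984 CPM at day 7. At day 14 that sum was lower, between 43055 and 45108 CPM. The summed level of 12 fibroblast markers lay between 251 and 313 CPM at day 1, 79.4 and 97.2 CPM at day 7, and 58.7 and 59.6 CPM at day 14. Most of that sum at day 1 was Dcn and Fbln1, while Lum had at most 90 counts and Pi16 was at 0 in all day 1 libraries. The 8 endothelial markers summed to between 3.90 and 4.70 CPM at day 1, 1.41 and 2.79 CPM at day 7, and 0.995 and 1.76 CPM at day 14. The 6 leukocyte markers summed to between 5.55 and 7.01 CPM at day 1, 5.71 and 6.82 CPM at day 7, and 24.9 and 26.5 CPM at day 14. All 4 tested rose at day 14 against day 7 (32.5% of all genes rose) and against day 1 (35.5%). The 6 melanocyte markers summed to between 358 and 387 CPM at day 1, 101 and 122 CPM at day 7, and 4.04 and 8.62 CPM at day 14. The 8 pericyte and smooth muscle markers summed to between 174 and 200 CPM at day 1 and 143 and 162 CPM at day 7. At day 14 they summed to between 238 and 252 CPM. The 6 Schwann markers summed to between 54.5 and 59.3 CPM at day 1 and 65.5 and 69.6 CPM at day 7. Their sum at day 14 was between 117 and 131 CPM. Between day 14 and day 1, however, 4 of the 6 fell (38.4% of all genes fell) and 2 rose (35.5% of all genes rose). In bulk RNA, fewer cells of a type and less RNA per cell cannot be told apart. The part of these cell types in the collagen values was not tested.

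The genes of type IV lie in head-to-head pairs, and the pairs behaved differently over the days, so their start regions are printed first. The windows hold 300 bases, 5′ to 3′ on the gene's own strand, from RefSeq on GRCm38.p6. Those printed lie around the annotated start of the gene, except that of Col27a1. Its window lies inside the gene, downstream of the gene start at base 63214009, and does not hold that start. Capitals mark GGGCGG, the GC box, and CCAAT, each searched on both strands, and no matches of the 2 motifs overlapped in the windows printed. Col4a1 (chr8:11312777-11313076, minus strand) and Col4a2 (chr8:11312555-11312854, plus strand) encode the chains found in nearly all basement membranes, and their windows share 78 bases.
Col4a1: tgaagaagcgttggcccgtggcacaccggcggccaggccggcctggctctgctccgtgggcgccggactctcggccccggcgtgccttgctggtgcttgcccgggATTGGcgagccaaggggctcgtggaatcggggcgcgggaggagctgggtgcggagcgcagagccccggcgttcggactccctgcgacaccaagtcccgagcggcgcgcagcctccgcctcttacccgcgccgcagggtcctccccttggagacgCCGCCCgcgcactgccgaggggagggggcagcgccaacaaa
Col4a2: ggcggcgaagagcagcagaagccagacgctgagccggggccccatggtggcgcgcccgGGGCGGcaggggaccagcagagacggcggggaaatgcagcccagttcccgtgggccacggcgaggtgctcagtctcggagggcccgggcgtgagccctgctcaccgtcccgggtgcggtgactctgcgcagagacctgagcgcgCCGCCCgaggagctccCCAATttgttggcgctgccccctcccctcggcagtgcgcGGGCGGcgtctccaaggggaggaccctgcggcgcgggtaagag
Col4a5 (chrX:141475169-141475468, plus strand) and Col4a6 (chrX:141474027-141474326, minus strand) encode chains that join in the epidermal basement membrane, and the genes start 1274 bases apart.
Col4a5: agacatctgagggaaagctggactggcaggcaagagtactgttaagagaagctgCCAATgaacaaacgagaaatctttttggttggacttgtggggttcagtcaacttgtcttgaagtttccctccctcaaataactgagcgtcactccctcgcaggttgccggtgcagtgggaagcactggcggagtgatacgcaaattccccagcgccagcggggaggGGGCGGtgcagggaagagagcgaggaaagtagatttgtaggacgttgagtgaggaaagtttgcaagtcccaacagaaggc
Col4a6: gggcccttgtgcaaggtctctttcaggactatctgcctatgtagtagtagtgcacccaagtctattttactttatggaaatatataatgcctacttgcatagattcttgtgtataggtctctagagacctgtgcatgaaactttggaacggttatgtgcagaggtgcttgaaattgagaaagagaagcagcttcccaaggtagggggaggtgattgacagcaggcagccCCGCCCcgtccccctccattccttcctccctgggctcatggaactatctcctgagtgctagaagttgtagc
Col27a1 (chr4:63215162-63215461, plus strand), a fibrillar collagen, and Col23a1 (chr11:51289670-51289969, plus strand), a transmembrane collagen, are shown because their log2 changes between day 14 and day 1 were the lowest and the highest among the 33 tested members.
Col27a1: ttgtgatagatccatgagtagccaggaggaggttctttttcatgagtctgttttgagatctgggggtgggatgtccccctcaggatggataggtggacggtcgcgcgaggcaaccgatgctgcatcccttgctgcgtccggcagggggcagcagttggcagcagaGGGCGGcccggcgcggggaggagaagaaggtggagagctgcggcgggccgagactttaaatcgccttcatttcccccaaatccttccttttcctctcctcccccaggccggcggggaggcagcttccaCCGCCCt
Col23a1: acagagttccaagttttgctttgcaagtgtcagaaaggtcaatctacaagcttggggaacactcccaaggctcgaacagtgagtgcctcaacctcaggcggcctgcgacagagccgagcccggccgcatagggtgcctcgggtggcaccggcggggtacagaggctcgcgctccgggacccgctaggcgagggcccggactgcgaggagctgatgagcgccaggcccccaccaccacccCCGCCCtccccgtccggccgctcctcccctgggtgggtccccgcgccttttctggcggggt
GGGCGG stood in 22 of the 36 windows of members (61.1%), against 35.7% of all 32851 windows, and CCAAT in 11 (30.6%), against 37.4%. The TATA box TATAAA stood in 4 windows (11.1%), against 13.6%, and the AP-1 motif TGANTCA in 1 (2.78%), against 7.81%. The windows are not all separate. The only GGGCGG match of Col4a1 lies in the bases shared with Col4a2 and counts for both. Col18a1, Col6a2 and Col9a1 have more than 1 window each, and those of Col6a2 overlap. These are matches of letters in a window and were not tested as binding sites.

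The summed level of the 42 genes, which leaves out Col17a1 and Col7a1, was lower at each later day. To compare genes, CPM was divided by the length of each gene's longest protein-coding transcript in kilobases. Summed over the 42 genes, this level averaged 462 ± 22.6 CPM per kilobase at day 1, 367 ± 10.3 at day 7 and 239 ± 33.2 at day 14 (SD, n = 3 each), and the libraries of different days did not overlap. Basement membrane collagens made up most of it, at 271 ± 9.91, 212 ± 5.14 and 136 ± 18.7 CPM per kilobase at days 1, 7 and 14, which is a share of 58.8%, 58.0% and 57.0%. Fibrillar collagens were at 39.6 ± 6.98, 7.60 ± 4.26 and 5.05 ± 1.61, a share of 8.55%, 2.05% and 2.2%. The other collagens were at 151 ± 6.64, 147 ± 0.929 and 97.7 ± 16.1, a share of 32.7%, 39.99% and 40.8%. These sums were not tested. Col17a1 and Col7a1, the collagens of the hemidesmosome and of the anchoring fibril, were left out of the sums by the rule. Col17a1 stood at 832 ± 16.0, 1179 ± 25.02 and 1179 ± 183 CPM per kilobase at days 1, 7 and 14, and rose between day 7 and day 1 (adjusted p 0.00117). Col7a1 stood at 191 ± 3.47, 223 ± 9.56 and 135 ± 20.3, and fell between day 14 and day 1 (adjusted p 0.000517).

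**Figure D1:**
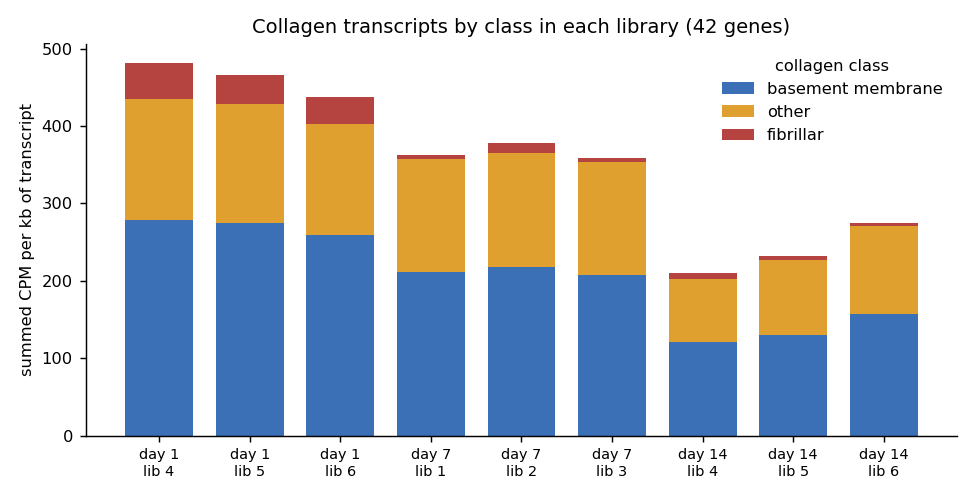
Summed CPM per kilobase of transcript (vertical axis) of the fibrillar, basement membrane and other collagen genes, stacked for each of the 9 libraries (horizontal axis) in order of day. The bars of all 42 genes average 462 at day 1, 367 at day 7 and 239 at day 14, and the fibrillar part is 39.6, 7.60 and 5.05.

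The leading genes were few, and their order changed with the day. Per kilobase, Col18a1 (108 CPM), Col16a1 (74.8), Col4a1 (61.9), Col4a5 (40.2), Col4a2 (35.9) and Col12a1 (33.6) stood highest at day 1. At day 7 the order was Col18a1 (106 ± 4.57), Col16a1 (87.2 ± 0.913), Col4a5 (51.1 ± 1.12), Col4a6 (27.1 ± 1.04), Col12a1 (25.7 ± 1.22) and Col6a1 (19.3). Below them were Col4a2 (13.9 ± 0.223) and Col4a1 (13.5 ± 0.584). Of these neighbours, Col4a6 and Col12a1 overlap in their mean ± SD, and so do Col4a2 and Col4a1. At day 14 it was Col16a1 (57.4 ± 10.2), Col4a5 (44.1 ± 6.16) and Col18a1 (39.7 ± 5.48), then Col4a6 (28.4), Col6a1 (16.9), Col4a2 (12.5), Col4a1 (11.2) and Col23a1 (9.98). Some neighbours overlap in mean ± SD at these days too, such as Col4a5 and Col4a2 at day 1 and Col16a1 and Col4a5 at day 14. Neither Col1a1 nor Col3a1, the main fibre collagens of the dermis, was among the 11 highest members at any day.

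The filter on low counts left 33 of the 42 members for testing, and an adjusted p under 0.05 over all 14507 tested genes was called a change. Between day 7 and day 1, 3 members rose (9.09% of those tested, against 25.5% of all genes) and 16 fell (48.5%, against 24%), in all 57.6% of those tested, against 49.4% of all genes. The median log2 fold change of the members was -0.80, and that of all genes was -0.0005. Between day 14 and day 7, 4 members rose (12.1%, against 32.5%) and 10 fell (30.3%, against 35.1%), in all 42.4%, against 67.6%, with medians of -0.44 for the members and -0.035 for all genes. Between day 14 and day 1, 3 members rose (9.09%, against 35.5%) and 19 fell (57.6%, against 38.4%), in all 66.7%, against 73.9%, with medians of -1.54 and -0.046. A test for any difference over the days called 21 members (63.6%, against 82.1% of all genes). The comparisons share libraries, so their counts are not separate results. Of the 9 members that were not tested, Col6a5, Col10a1 and Col22a1 had 0 counts in every library, and the highest count in any library was 20 for Col11a1, 11 for Col28a1, 6 for Col6a6, 5 each for Col9a1 and Col24a1, and 2 for Col6a4.

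Whether the 2 steps differed was tested as day 14 versus day 7 minus day 7 versus day 1. The second step was more positive in 9 members (27.3% of those tested, against 24.2% of all genes) and more negative in 6 (18.2%, against 27.6%), in all 45.5%, against 51.8%. The 9 were Col4a1, Col4a2, Col5a2, Col27a1, Col11a2, Col6a2, Col9a3, Col13a1 and Col20a1, and the 6 were Col18a1, Col4a5, Col8a1, Col12a1, Col16a1 and Col25a1. Both sets hold members of more than 1 class.

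**Figure D2:**
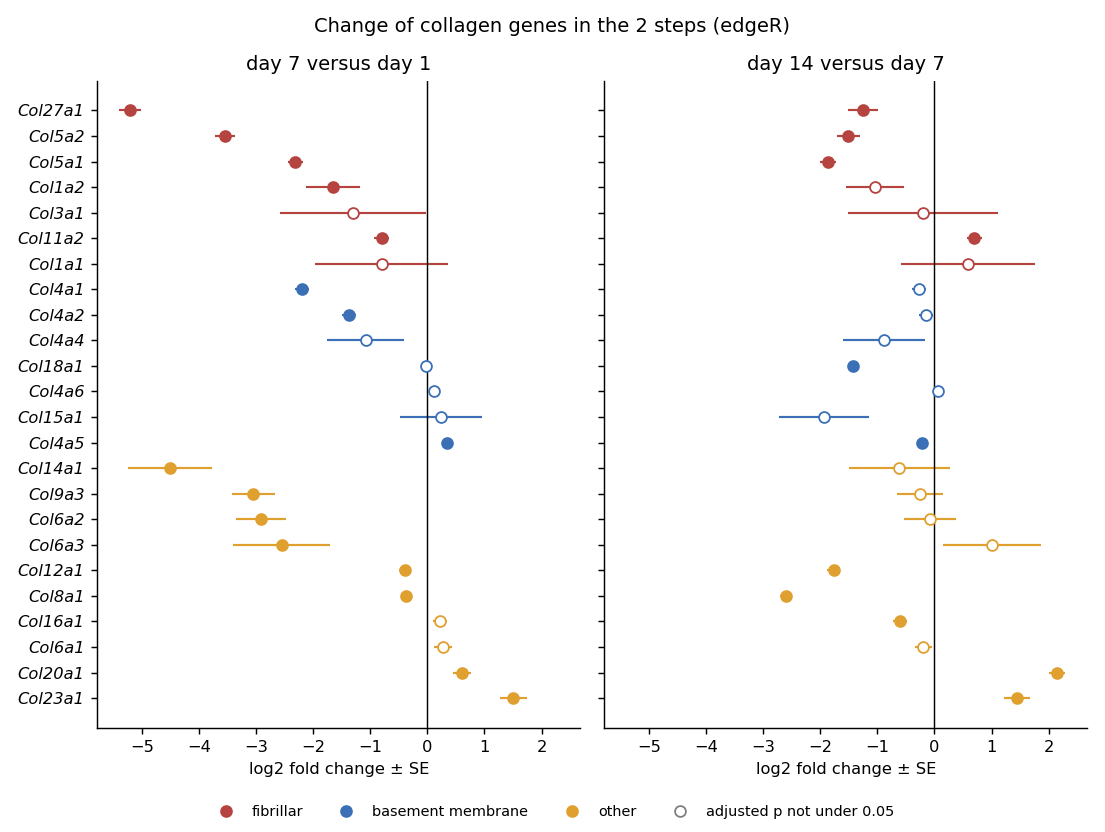
Log2 fold change ± SE (horizontal axis) of collagen genes (vertical axis) for day 7 versus day 1 (left) and day 14 versus day 7 (right), coloured by class, with open points where the adjusted p was not under 0.05. Col27a1, Col5a2 and Col4a1 lie further left of 0 in the first step than in the second, and Col18a1, Col8a1 and Col12a1 further left in the second; members with few counts are not drawn.

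Among the basement membrane collagens, Col4a1 and Col4a2 fell early and Col18a1 fell late, while Col4a5 and Col4a6 moved little. Of the 8, 1 rose and 2 fell between day 7 and day 1 (25% lower, against 24% of all genes), 2 fell between day 14 and day 7 (25%, against 35.1%), and 1 rose and 5 fell between day 14 and day 1 (62.5% lower, against 38.4%). Col4a1 (gene 12826) stood at 464, 413 and 351 CPM at day 1, 86.6, 93.9 and 88.0 at day 7, and 64.0, 74.1 and 84.5 at day 14. Every day 7 library lay below every day 1 library, a log2 fold change of -2.19 ± 0.12 (SE, n = 3 per day, edgeR quasi-likelihood test, adjusted p 9.99e-07). The second step was -0.27 ± 0.12 (adjusted p 0.0702), and it passed the threshold when library 6 of day 14 was left out (-0.38, adjusted p 0.0193), or library 4 of day 1 (adjusted p 0.0338) or library 6 of day 1 (adjusted p 0.0207). It also passed with library totals as scaling (adjusted p 0.0106), with DESeq2 (adjusted p 0.0396) and in a fit of days 7 and 14 alone (adjusted p 0.0279). The steps of Col4a1 differed by 1.92 ± 0.21 (adjusted p 0.000105).

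Col4a2 (gene 12827), its partner chain, had 254, 231 and 210 CPM at day 1, 88.3, 91.2 and 89.4 at day 7, and 68.0, 76.2 and 97.5 at day 14. It was lower in all day 7 libraries than in all day 1 libraries, and days 14 and 7 overlapped. The change was -1.37 ± 0.12 for day 7 versus day 1 (adjusted p 2.72e-05) and -0.15 ± 0.12 for day 14 versus day 7 (adjusted p 0.297, or 0.00364 without library 6 of day 14). The annotated genes overlap by 85 bases at their starts, and the strand setting of the counting is not given, so reads in that stretch cannot be assigned to either gene. Endothelial cells also make these chains. Of 4 tested endothelial markers, 2 also fell between day 7 and day 1 (24% of all genes fell), and 2 between day 14 and day 7 (35.1% of all genes fell). Tek and Egfl7 fell in both. Pecam1, Cdh5 and Kdr had at most 59, 28 and 22 counts in any library. The part of endothelial RNA in these values was not tested.

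Col4a5 (gene 12830) was at 249, 271 and 268 CPM at day 1, 326, 338 and 339 at day 7, and 267, 264 and 335 at day 14. Day 7 was higher than day 1 with no overlap, by 0.35 ± 0.08 (log2, adjusted p 0.00431), while at day 14 library 6 lay among the day 7 values and libraries 4 and 5 among those of day 1. The second step of -0.21 ± 0.08 (adjusted p 0.0371) lost its call without library 2 (adjusted p 0.0755) or library 3 (0.0718) of day 7, or library 4 (0.116) or library 5 (0.116) of day 14. With RLE scaling of all libraries that call was lost too (adjusted p 0.0662). Col4a6 (gene 94216) was at 167, 163 and 168 CPM at day 1, 172, 183 and 186 at day 7, and 164, 190 and 213 at day 14. Its rise of 0.19 ± 0.08 between day 14 and day 1 (adjusted p 0.0405) kept its call in only 1 of the 9 fits that leave out a library, that without library 4 of day 14; the other 8 gave adjusted p-values from 0.0523 to 0.217. It turned to -0.08 when libraries were scaled by their totals. Col4a3 and Col4a4, chains known best from the kidney glomerulus, were at most 1.56 and 2.01 CPM in any library. Their calls between day 14 and day 1 (adjusted p 0.0317 and 0.0298) were lost when library 4 or 5 of day 1 or library 4 or 6 of day 14 was left out, with adjusted p-values from 0.0520 to 0.104.

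Col18a1 (gene 12822; chromosome 10, 77052178 to 77166530), whose protein is a proteoglycan of basement membranes and the source of endostatin, held 586, 617 and 602 CPM at day 1, 604, 614 and 565 at day 7, and 195, 215 and 255 at day 14. Days 1 and 7 overlapped, and all day 14 libraries lay below both. Its first step was -0.02 ± 0.08 (adjusted p 0.870) and its second -1.42 ± 0.08 (adjusted p 7.47e-08), 2.68-fold lower at day 14, and the steps differed by -1.40 ± 0.14 (adjusted p 1.47e-05). Col15a1, the related multiplexin, stayed at or below 3.77 CPM and changed in no pair of days.

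**Figure D3:**
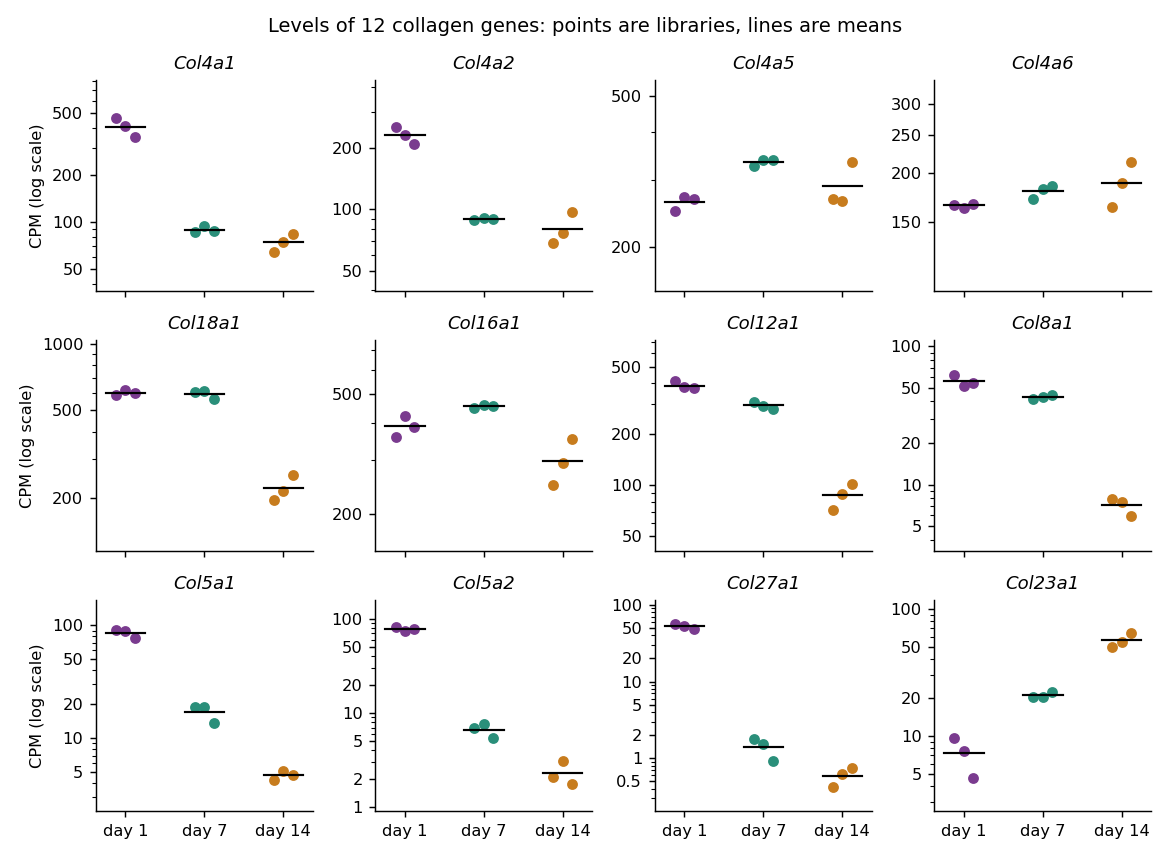
CPM on a log axis (vertical) of 12 collagen genes at days 1, 7 and 14 (horizontal); points are libraries and lines are the means of 3. Col4a1, Col4a2, Col5a2 and Col27a1 drop mainly between days 1 and 7, Col18a1, Col12a1 and Col8a1 mainly between days 7 and 14, and Col23a1 is higher at each later day.

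The fibrillar collagens fell or did not pass the test at day 7, and none rose between day 7 and day 1 or between day 14 and day 1. Of the 9 tested, 5 fell between day 7 and day 1 (55.6%, against 24% of all genes), 3 fell and 1 rose between day 14 and day 7 (33.3% lower, against 35.1%), and 4 fell between day 14 and day 1 (44.4%, against 38.4%). Of 9 tested fibroblast markers, Dcn, Fbln1 and Fstl1 also fell between day 7 and day 1, Thy1 rose, and the other 5 did not pass the test. Col27a1 (gene 373864; chromosome 4, 63214009 to 63334991), a collagen of thin fibrils best known from cartilage, had 56.8, 52.9 and 48.3 CPM at day 1, 1.75, 1.53 and 0.928 at day 7, and 0.419, 0.622 and 0.736 at day 14. No library of a later day reached an earlier one. The change was -5.21 ± 0.19 for day 7 versus day 1 (37.0-fold lower, adjusted p 2.72e-08) and -1.26 ± 0.26 for day 14 versus day 7 (adjusted p 0.00181).

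Col5a1 (gene 12831) and Col5a2 (gene 12832) encode type V collagen, which sets the width of type I fibrils. Col5a1 was at 90.4, 90.0 and 76.8 CPM at day 1, 19.0, 18.9 and 13.7 at day 7, and 4.23, 5.17 and 4.72 at day 14. It fell in both steps, by 2.31 ± 0.13 (adjusted p 4.65e-07) and by 1.87 ± 0.14 (adjusted p 1.75e-06), and the difference of 0.44 ± 0.23 did not pass the test (adjusted p 0.131). Col5a2 was at 81.5, 73.2 and 77.9 CPM at day 1, 6.92, 7.63 and 5.38 at day 7, and 2.12, 3.11 and 1.77 at day 14. Its fall of 3.54 ± 0.18 in the first step (adjusted p 6.2e-07) exceeded that of 1.51 ± 0.20 in the second (adjusted p 0.000151), with a difference of 2.03 ± 0.32 (adjusted p 0.000877). Both genes were lower at every later day without overlap.

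Col11a2 (gene 12815), a chain of cartilage type XI collagen, was low in the middle. It had 5.74, 6.58 and 6.49 CPM at day 1, 4.20, 3.47 and 3.09 at day 7, and 5.97, 5.52 and 6.01 at day 14. All day 7 libraries lay below all others, with changes of -0.80 ± 0.13 (adjusted p 0.000316) and 0.70 ± 0.13 (adjusted p 0.000531), and days 14 and 1 overlapped. Col2a1 and Col5a3 had at most 18 and 42 counts in any library and changed in no pair of days.

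Col1a1 and Col3a1, of type I and type III collagen, varied more between libraries of a day than between days. Col1a1 (gene 12842) had 16.3, 4.42 and 2.12 CPM in libraries 4, 5 and 6 of day 1, 1.5, 10.9 and 0.677 in libraries 1, 2 and 3 of day 7, and 8.97, 7.11 and 3.62 in libraries 4, 5 and 6 of day 14. Within a day its highest library exceeded its lowest 7.70-fold at day 1, 16.1-fold at day 7 and 2.48-fold at day 14. Its change was -0.80 ± 1.17 for day 7 versus day 1 (adjusted p 0.613) and 0.58 ± 1.18 for day 14 versus day 7 (adjusted p 0.685). With single libraries left out, the first value ran from -2.78, without library 2 of day 7 (adjusted p 0.103), to 0.42, without library 4 of day 1 (adjusted p 0.818). Col3a1 (gene 12825) was scattered too, at 36.7, 12.2 and 6.10 CPM at day 1, 1.31, 19.5 and 1.39 at day 7, and 12.7, 3.83 and 2.87 at day 14, and it passed the test in no pair of days. Col1a2 (gene 12843) had 34.5, 24.7 and 21.8 CPM at day 1, 5.46, 14.8 and 5.40 at day 7, and 5.95, 3.64 and 2.89 at day 14. Day 7 was lower than day 1 in every library, by 1.66 ± 0.48 (log2, adjusted p 0.0272), a call lost without library 4 (adjusted p 0.0805) or 5 (0.0550) of day 1 or library 1 (0.0813) or 3 (0.0802) of day 7. Without library 2 of day 7 the change was -2.31 (adjusted p 0.00180). Day 14 versus day 1 gave -2.70 ± 0.51 (adjusted p 0.00261).

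The FACIT collagens, which decorate fibrils and basement membrane zones, included some of the most abundant members. Of their 7 tested genes, 1 rose and 4 fell between day 7 and day 1 (57.1% lower, against 24% of all genes), 1 rose and 3 fell between day 14 and day 7 (42.9% lower, against 35.1%), and 1 rose and 6 fell between day 14 and day 1 (85.7% lower, against 38.4%). Col12a1 (gene 12816; chromosome 9, 79598987 to 79721141) was at 412, 377 and 372 CPM at day 1, 311, 294 and 283 at day 7, and 71.7, 88.4 and 102 at day 14. No days overlapped, and the second step of -1.76 ± 0.11 (adjusted p 7.17e-07) was larger than the first of -0.39 ± 0.11 (adjusted p 0.0155), with a difference of -1.38 ± 0.18 (adjusted p 0.000259). The first step lost its call without library 4 of day 1 (adjusted p 0.0610) or library 3 of day 7 (adjusted p 0.0533).

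Col16a1 (gene 107581), a FACIT found near the dermal-epidermal junction, was at 358, 421 and 388 CPM at day 1, 449, 457 and 456 at day 7, and 248, 295 and 354 at day 14. All day 14 libraries were below all others. It fell by 0.60 ± 0.11 between day 14 and day 7 (log2, adjusted p 0.00140), while the first step of 0.22 ± 0.11 did not pass the test (adjusted p 0.143). It did without library 4 (adjusted p 0.0271) or library 6 (adjusted p 0.0242) of day 14, and in a fit of days 1 and 7 alone (adjusted p 0.00706).

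Col20a1 (gene 73368; chromosome 2, 180983323 to 181017545) was the FACIT that rose. It had 2.2, 2.19 and 1.76 CPM at day 1, 2.94, 3.10 and 3.33 at day 7, and 11.3, 13.9 and 16.3 at day 14. No days overlapped, and the rise of 2.15 ± 0.15 in the second step (adjusted p 9.67e-08) exceeded that of 0.60 ± 0.15 in the first (adjusted p 0.00601) by 1.54 ± 0.26 (adjusted p 0.000443). Col9a3 (gene 12841), a chain of cartilage type IX collagen, had 6.66, 9.28 and 6.2 CPM at day 1, 1.47, 0.473 and 0.716 at day 7, and 0.499, 0.943 and 0.796 at day 14. It was lower in all day 7 libraries than at day 1, by 3.05 ± 0.38 (log2, adjusted p 0.000103), and by 3.64 without library 1 of day 7. Its gene overlaps Tcfl5 on the opposite strand over 234 exon bases, and Tcfl5 had at most 12 counts in any library.

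Col14a1 (gene 12818), a FACIT of dense connective tissue, was at 41.4, 34.3 and 29.6 CPM at day 1, 1.55, 2.32 and 0.677 at day 7, and 0.939, 2.04 and 0 at day 14. Day 1 stood far above the later days in every library, with a change of -4.51 ± 0.74 at day 7 (adjusted p 0.00266), and days 14 and 7 overlapped. Between day 14 and day 1 the change was -5.13 ± 0.79 (adjusted p 0.000998), and -6.23 without library 5 of day 14. Col19a1 and Col9a2 had at most 31 and 33 counts in any library. Col19a1 was called lower between day 7 and day 1 (adjusted p 0.0304), a call lost without library 5 or 6 of day 1 or any library of day 7 (adjusted p 0.0615 to 0.109), and between day 14 and day 1 (adjusted p 0.0288), lost without library 5 or 6 of day 1 or library 4 or 5 of day 14 (0.0784 to 0.0999). Col9a2 was called lower at day 14 than at day 7 (adjusted p 0.0483) and than at day 1 (adjusted p 0.0496), on 15, 19 and 15 counts at day 1, 33, 12 and 4 at day 7, and 0, 0 and 7 at day 14. The call against day 7 was lost in every fit without 1 library except those without library 3 of day 7 or library 6 of day 14, with adjusted p-values from 0.0595 to 0.252. The call against day 1 was lost without any library of day 1, library 2 of day 7, or library 4 or 5 of day 14 (0.0605 to 0.145).

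The transmembrane collagens went in different directions. Col23a1 (gene 237759; chromosome 11, 51289679 to 51583925) was at 9.66, 7.55 and 4.67 CPM at day 1, 20.04, 20.3 and 22.0 at day 7, and 49.8, 55.1 and 64.5 at day 14. No days overlapped. It rose by 1.51 ± 0.24 in the first step (adjusted p 0.00146) and by 1.44 ± 0.23 in the second (adjusted p 0.000843), a difference of -0.06 ± 0.39 (adjusted p 0.906), and at day 14 it was 7.72-fold above day 1. Col25a1 (gene 77018), known in mouse for a part in motor nerve growth to muscle, had 0.784, 0.531 and 0.391 CPM at day 1 and 0.821, 0.603 and 0.774 at day 7, and then 2, 0 and 0 counts at day 14. It was called lower at day 14 than at day 7 (adjusted p 3.48e-05). Col13a1 (gene 12817), a collagen of the neuromuscular junction, had 28, 4 and 15 counts at day 1, 0 in all day 7 libraries, and 24, 26 and 4 at day 14. Against a floor of 3 counts per library at day 7, it was at least 4.68-fold lower at day 7 than at day 1 (adjusted p 0.00701) and at least 6.80-fold higher at day 14 than at day 7 (adjusted p 0.00239).

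Type VI collagen is built from the chains a1, a2 and a3, and their genes did not move alike. Col6a1 (gene 12833) held 77.5, 58.7 and 59.4 CPM at day 1, 78.5, 79.8 and 78.9 at day 7, and 58.7, 64.0 and 84.9 at day 14, and it passed the test in no pair of days. All its day 7 libraries lay just above those of day 1, and day 14 overlapped both. Col6a2 (gene 12834), whose gene lies 85161 bases from Col6a1, had 25.04, 13.0 and 10.2 CPM at day 1, 1.66, 3.02 and 1.70 at day 7, and 1.64, 2.73 and 1.67 at day 14. It was lower at day 7 than at day 1 in every library, by 2.91 ± 0.43 (log2, adjusted p 0.00105), and the second step was -0.08 ± 0.46 (adjusted p 0.891). The difference of its steps lost its call without library 1 (adjusted p 0.0808) or library 3 (adjusted p 0.0768) of day 7, and with limma-voom (adjusted p 0.146). Col6a3 (gene 12835) had 32.7, 12.7 and 7.55 CPM at day 1, 1.5, 6.0 and 1.49 at day 7, and 5.39, 9.5 and 3.30 at day 14. Its change of -2.55 ± 0.85 at day 7 (adjusted p 0.0463) was -1.75 without library 4 of day 1 (adjusted p 0.131) and -3.56 without library 2 of day 7 (adjusted p 0.0272). The call was also lost without any other library except library 6 of day 1, with adjusted p-values from 0.0586 to 0.130.

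Col8a1 (gene 12837), a short-chain collagen that forms lattices, was at 62.0, 51.5 and 54.2 CPM at day 1, 41.4, 43.0 and 44.6 at day 7, and 7.83, 7.43 and 5.97 at day 14. No days overlapped, and it fell by 0.38 ± 0.09 in the first step (adjusted p 0.00402) and by 2.60 ± 0.10 in the second (adjusted p 1.24e-09), 6.07-fold lower at day 14 than at day 7, with a difference of -2.22 ± 0.15 (adjusted p 9.23e-07). Its relative Col8a2 had at most 43 counts in any library and changed in no pair of days. Col26a1 (gene 140709), an EMI-domain collagen, had 116, 56 and 51 counts at day 1, 4, 8 and 0 at day 7, and 0, 3 and 0 at day 14. It was called lower at day 7 than at day 1 (adjusted p 0.000836), with 1.15 ± 0.49 CPM at day 1.

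The spread among libraries of a day was wide for a subset of the members. As a measure, the biological coefficient of variation that edgeR estimates for each gene was divided by the trend over all genes of the same level. This ratio was over 2 in 10 of the 33 tested members (30.3%), against 3.43% of all genes, and its median was 1.39 over the members. The 10 were Col14a1 (10.3), Col3a1 (9.27), Col1a1 (6.59), Col6a3 (5.62), Col1a2 (4.0), Col4a3 (3.07), Col6a2 (2.56), Col15a1 (2.498), Col23a1 (2.32) and Col4a4 (2.002). Among those well measured and close to the trend were Col18a1 (0.905), Col4a6 (0.904), Col4a5 (0.913), Col8a1 (1.04), Col12a1 (1.06) and Col16a1 (1.08). The classes did not separate by spread: 3 of 8 basement membrane, 3 of 9 fibrillar and 4 of 16 other collagens were over 2.

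**Figure D4:**
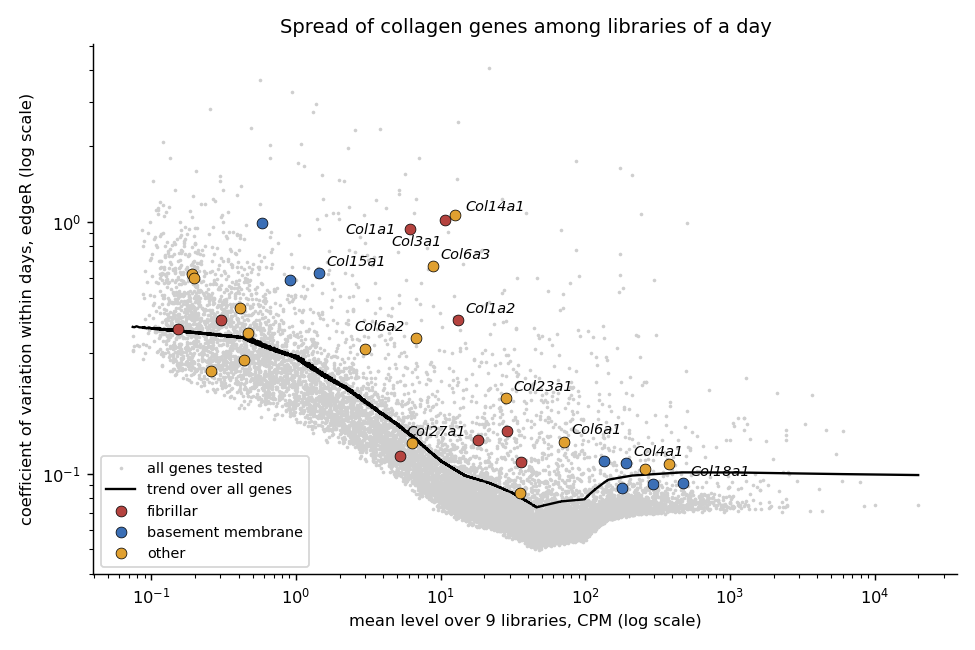
Coefficient of variation within days (vertical, log axis) against mean CPM over the 9 libraries (horizontal, log axis), with all 14507 tested genes in grey, their trend as a line and collagen genes coloured by class. Col14a1, Col3a1, Col1a1 and Col6a3 stand from 5.62 to 10.3 times above the trend, while Col18a1 and Col4a5 lie on it.

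The scattered members shared their high and low libraries. Among the 10, library 4 of day 1 was the highest of its day in 8 and library 6 the lowest in all 10, library 2 of day 7 was the highest in 8, and at day 14 library 5 was the highest in 6 and library 6 the lowest in 7. Among the other 23, day 14 ran differently, with library 6 the highest in 14 and library 4 the lowest in 16, while library 4 of day 1 was the highest in 12 and library 2 of day 7 in 9. The 9 tested fibroblast markers had their highest value of day 1 in library 4 in 7 cases, and of day 7 in library 2 in 8 cases. At day 14 library 5 was highest in 4, library 6 in 3 and library 4 in 2. The 6 dermal papilla markers summed to between 2.47 and 10.6 CPM at day 1, highest in library 4. At day 7 they summed to between 2.45 and 7.53 CPM, highest in library 2. The endothelial sum was highest in library 5 of day 1 and library 2 of day 7. The melanocyte sum was highest in library 5 of day 1 and library 1 of day 7. Lum, a fibroblast proteoglycan, had 90, 16 and 15 counts at day 1, 0, 30 and 0 at day 7, and 12, 0 and 5 at day 14. The part that RNA of fibroblasts or of other cell types has in the scattered collagens was not tested.

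With library 4 of day 1 and library 2 of day 7 both left out, an alternative chosen after seeing the data, 2 members rose and 14 fell between day 7 and day 1, 6 rose and 8 fell between day 14 and day 7, and 2 rose and 16 fell between day 14 and day 1. Of all 14627 genes tested in that fit, 5804, 9189 and 10276 were called in these comparisons. Of those calls, 53.2%, 48.2% and 47.6% were higher. With all libraries, 7171, 9808 and 10716 of 14507 genes were called. Col1a1 was then called higher at day 14 than at day 7 by 2.56 (log2, adjusted p 0.0148) and Col6a3 by 2.01 (adjusted p 0.0258), calls absent with all libraries. Library 2 of day 7 held the highest day 7 value of both genes. Leaving it out enlarges this change by itself, so these 2 p-values cannot be read as tests of it. The day 7 versus day 1 calls of Col12a1 (adjusted p 0.123), Col4a5 (adjusted p 0.0517) and Col19a1 (adjusted p 0.0847) were lost in that fit. So were those of Col4a5 (0.0810) and Col9a2 (0.0731) between day 14 and day 7, and of Col4a6 (0.119), Col4a4 (0.0613), Col4a3 (0.0771) and Col9a2 (0.0836) between day 14 and day 1.

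**Figure D5:**
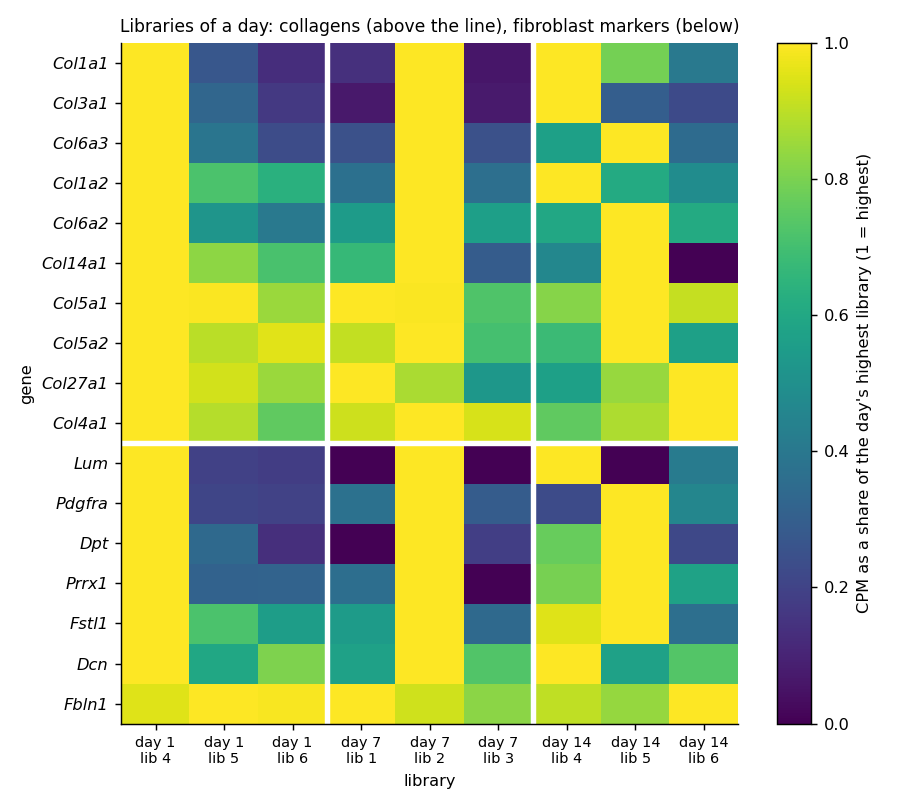
CPM of each gene in each library as a share of the highest library of that day (colour, 1 is the highest), with collagen genes above the line and fibroblast markers below it; columns are the 9 libraries in order of day. Col1a1, Col3a1 and Lum share their highest libraries at days 1, 7 and 14, libraries 4, 2 and 4. Most others differ at day 14, where library 4 was highest in 2 of 9 tested fibroblast markers and 3 of 10 scattered collagens. Col4a1 varies less, its highest library being 1.32-fold above its lowest at day 1 and 1.08-fold at day 7.

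Genes that make and use collagen were counted from lists, beside the same shares over all genes: 25.5% higher and 24% lower between day 7 and day 1, 32.5% and 35.1% between day 14 and day 7, and 35.5% and 38.4% between day 14 and day 1. Of 18 tested genes of folding and modification, 6 rose and 7 fell between day 7 and day 1, 3 rose and 9 fell between day 14 and day 7, and 4 rose and 9 fell between day 14 and day 1. P4hb, a subunit of prolyl 4-hydroxylase, passed the test in no pair of days, at 466 ± 8.94, 473 ± 10.3 and 451 ± 6.36 CPM at days 1, 7 and 14. Serpinh1, the collagen chaperone HSP47, was at 186 ± 60.5, 127 ± 53.7 and 90.0 ± 26.0 CPM, and its change of -1.05 ± 0.42 between day 14 and day 1 did not pass the test (adjusted p 0.0592).

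Of 11 tested genes of procollagen processing and cross-linking, 1 rose and 7 fell between day 7 and day 1, 2 rose and 4 fell between day 14 and day 7, and 1 rose and 6 fell between day 14 and day 1. Pxdn, which makes the sulfilimine cross-link of type IV collagen, had 103 ± 6.37, 26.7 ± 0.742 and 15.02 ± 1.64 CPM at days 1, 7 and 14 and fell by 1.95 ± 0.07 in the first step (adjusted p 2.27e-09). Bmp1, the procollagen C-proteinase, fell to 144 ± 14.5 CPM at day 14, against 287 ± 14.9 CPM at day 1 (adjusted p 5.39e-08).

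Of 8 tested collagen receptors and uptake genes, 2 rose and 3 fell between day 7 and day 1, 3 rose and 3 fell between day 14 and day 7, and 5 rose and 3 fell between day 14 and day 1. Ddr1, a receptor kinase for collagen, rose to 480 ± 4.77 CPM at day 14, against 344 ± 17.2 CPM at day 1 (adjusted p 6.43e-07). Itgb1, the shared chain of the collagen-binding integrins, was at 331 ± 29.2 CPM at day 14 and 382 ± 34.5 CPM at day 1 (log2 fold change -0.21 ± 0.07, adjusted p 0.0216). Of 6 tested collagen-cleaving proteases, 1 rose and none fell between day 7 and day 1, 1 rose and 1 fell between day 14 and day 7, and 2 rose and 2 fell between day 14 and day 1. Mmp14, a membrane-bound collagenase, had 306 ± 24.6 CPM at day 14 and 405 ± 7.79 CPM at day 1, and fell by 0.40 ± 0.05 (log2, adjusted p 2.21e-05).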

How the data were processed

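RNA was sequenced from 9 libraries, 3 each at postnatal days 1, 7 and 14. Per the labels' protocols, viable CD45.2-negative cells were sorted from fresh skin, and stranded mRNA libraries were made. The submitters' processing notes name HISAT2 2.1.0, StringTie 1.3.4d, Trimmomatic and bcl2fastq 2.20.0, in no stated order, with the mouse build mm10. For the counting step and its strand setting, the sources used here give nothing. What was used of the deposited table are the whole-number read counts of each gene, unscaled, per the file headers. The columns of the table, counts included, can be tied to a day but not to single samples. The 18 columns of length-scaled values were left aside. The comparison of levels planned on them was made instead with CPM per kilobase of the longest protein-coding transcript in GENCODE vM21.

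Counts were fitted with edgeR 4.0.16 in R 4.3.3 (TMM scaling, filterByExpr, robust quasi-likelihood F test, 1 model over all libraries). Adjusted p-values are Benjamini-Hochberg values over 14507 genes. CPM are counts scaled to TMM-adjusted library size, log2 fold changes are ± SE, and a count of 0 has a floor of 3 counts per library, or 0.0472, 0.0514 and 0.0587 CPM on average at days 1, 7 and 14, which covers counting error only. The fitting code was also run on simulated counts whose spread followed the trend over all genes. That run cannot speak for members whose spread lay far above the trend. Alternatives used RLE scaling, library totals, DESeq2 1.42.0, limma-voom (limma 3.58.1), no filter, only the libraries of the days compared, and each library left out. Full values are given for up to 25 members called in any pair of days, with Col1a1, Col1a2, Col3a1, Col4a1 and Col4a2 always included. Gene coordinates are from RefSeq on GRCm38.p6, the assembly of mm10, for 42 of 42 members, and a start window was found for 33. The members, lists and tests were chosen with earlier results of these data known.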

Additional observations from a re-analysis of the deposited data

How the results depend on the processing

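Over all alternatives and named members, 1787 values were recomputed, of which 1671 kept their direction and their side of the threshold, 84 lost a call, 31 gained one and 1 reversed. The reversal was Col4a6 between day 14 and day 1, at -0.083 (adjusted p 0.329) with library totals as scaling. That scaling moved the median log2 fold change of all genes to -0.0995 (day 7 versus day 1), -0.21 (day 14 versus day 7) and -0.319 (day 14 versus day 1), and the share of called genes that were higher to 35.7%, 34.9% and 31.9%, against 51.5%, 48.1% and 48.1% with TMM. It also called Col11a2 lower between day 14 and day 1 (-0.38, adjusted p 0.0168). Under it the members called were 3 higher and 16 lower, 4 higher and 14 lower, and 2 higher and 20 lower in those comparisons. With only the libraries of the days compared, 5 members were higher at day 7 than at day 1, where 3 were otherwise. The additions were Col16a1 (adjusted p 0.00706) and Col4a6 (adjusted p 0.0329). This fit has fewer libraries and fewer genes, and it called 7232 of 14147 genes, 50.4% of them higher. With each library left out in turn, the members higher and lower numbered 3 to 4 and 12 to 15 at day 7 against day 1, 4 to 5 and 8 to 13 at day 14 against day 7, and 2 to 3 and 15 to 20 at day 14 against day 1. Over all genes, those fits called 6096 to 7268, 9114 to 9897 and 10250 to 10784 in these comparisons. Of those calls, 51.2% to 53.1%, 47.3% to 48.2% and 47.2% to 47.8% were higher. The second step was more positive in 8 to 11 and more negative in 6 to 8, and any difference was called in 21 to 24. With the union of exons as length, an alternative chosen after seeing the data, the basement membrane share of the summed level was 61.8%, 60.2% and 58.9% at days 1, 7 and 14, the share of the other collagens was 30.8%, 38.0% and 39.2%, and the fibrillar share was 7.42%, 1.81% and 1.89%. Levels on the deposited FPKM were not run. Header numbers are shared by days 1 and 14. Deviations of same-numbered libraries correlated at 0.014, 0.010 and 0.104, and those of differently numbered libraries at values from -0.065 to 0.049. With 3 libraries a day, these values cannot settle whether the libraries share more than a number. A replicate block on that number called 2 members higher and 19 lower between day 14 and day 1, called Col3a1 lower (-1.45, adjusted p 1.11e-05), and lost the calls of Col4a6 (adjusted p 0.0603), Col19a1 (0.0540) and Col9a2 (0.0544). Over all genes, the fit with that block called 10170 of 14306, 48.1% of them higher. Col9a2, Col13a1, Col19a1 and Col25a1 had at most 53 counts in any library, which limits what their tests can show.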
